A study of Canis lupus familiaris with 30 samples.

Results

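CCL5, CCL4, CD8A, PRF1, KLRD1 and FASLG are genes of cytotoxic T cells and natural killer (NK) cells, the blood lymphocytes that kill infected or abnormal cells. They were taken by name, as every probe outside the controls whose RefSeq transcript belongs to 1 of these 6 genes. This gave 7 probes of 43603, 2 for CD8A and 1 for each other gene. After filtering the array gave 25954 units, each a gene or an unnamed transcript read by its brightest probe, and 1090 of them carried a gene symbol. All 6 genes passed the filter, and every probe stood well above background in 60 of 60 channels with 0 saturated.

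A cytotoxic cell recognises its target through surface receptors and then kills it by releasing granules or by engaging death receptors. CD8A encodes a chain of the CD8 coreceptor, which binds MHC class I molecules, and KLRD1 encodes CD94, which pairs with NKG2 proteins into receptors found on NK cells and some T cells. PRF1 encodes perforin, the granule protein that opens pores in the target membrane. FASLG encodes the ligand of the death receptor FAS. CCL5 and CCL4 are chemokines that activated T cells and NK cells secrete. In dogs, as in other mammals, these cells belong to the mononuclear fraction of blood.

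The RNA came from peripheral blood mononuclear cells of adult dogs that ate nothing but a kibble containing carbohydrate (8 dogs) or raw red meat high in protein and fat (7 dogs) for 9 weeks. Week 0, 3, 6 and 9 samples of each diet make up the 8 groups. Samples were set against each other in pairs on 30 arrays, with Cy3 on 1 sample and Cy5 on the other. On 14 arrays (diet arrays) meat was paired with kibble of the same week, and on 16 (time arrays) week 6 with week 3 or week 9 with week 0 of the same diet.

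Weeks 0 and 3 had 3 diet arrays each, and weeks 6 and 9 had 4 each. Diet arrays of different weeks lay on different slides, so in them slide and week cannot be told apart. Weeks 3 and 6 were never hybridised against weeks 0 or 9. Each group was read in 7 or 8 channels, whereas the labels state 6 biological replicates, and which dog lies on which array is not given. The p-values therefore measure the spread between arrays, which can hold the same dog more than once. The number of probes well above background ran from 19423 to 43411 per channel. The array meat 9/meat 0 replicate 1 (the Cy3 sample is named first) stood apart with 42703 and 43411, against at most 31560 on the other arrays. In whole mononuclear cells, fewer cells of a type and less RNA per cell cannot be told apart.

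At weeks 3 and 6 the fitted level of all 6 genes was lower in dogs on meat than in dogs on kibble. The difference passed the threshold in 2 of 6 at week 3 and 5 of 6 at week 6, and in 0 of 6 at weeks 0 and 9. Averaged over weeks 3 and 6, CCL5 was 2.44-fold lower on meat and the other 5 genes were 1.34-fold to 1.54-fold lower. The limma fit with Benjamini-Hochberg adjustment over all units called 6 of 6 lower at an adjusted p below 0.05, where 6.84% of all units were called lower. The median of the 6 differences was -0.55 on the log2 scale, beside 0.00 over all units, and 2.94% of all units were as low as the least changed of the 6. The 6 genes and the gene lists below were chosen with earlier results of these data known. Their counts beside the shares of all units are therefore a description and no test of the set. 

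**Figure D1:**
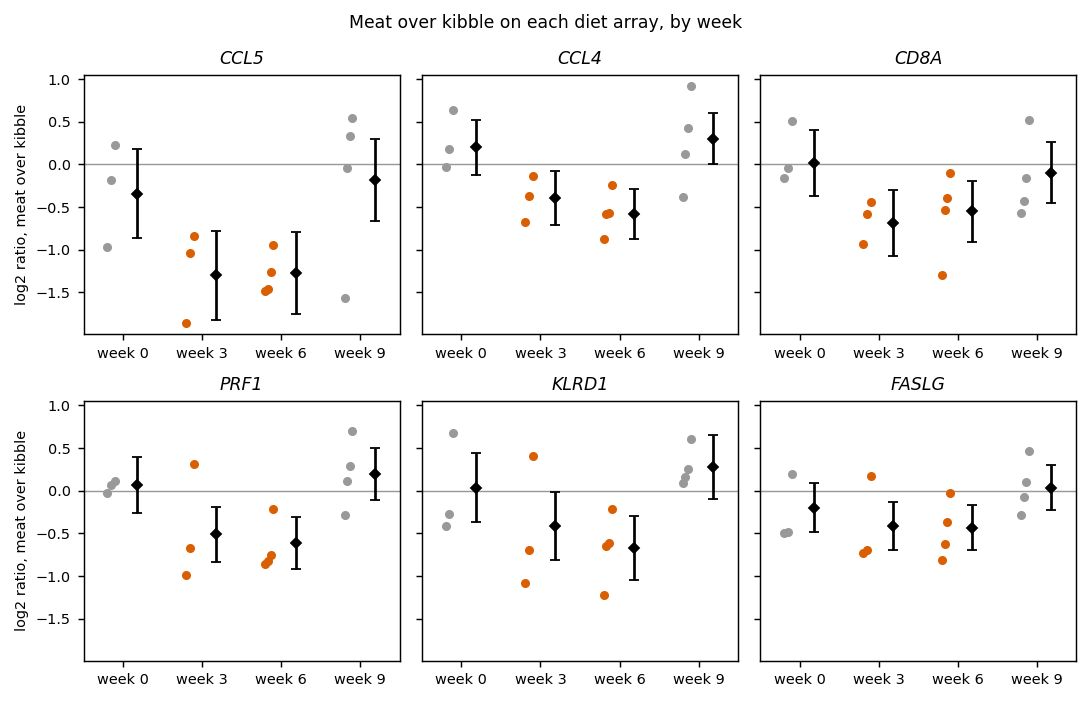
Log2 ratio of meat over kibble for each of the 6 genes (y axis) at weeks 0, 3, 6 and 9 (x axis). Coloured points are single arrays (3, 3, 4 and 4 per week) and black diamonds are the fitted differences with 95% confidence intervals. The points of CCL5, CCL4 and CD8A lie below 0 on all 7 arrays of weeks 3 and 6, and those of weeks 0 and 9 lie on both sides of 0 in 5 genes at week 9 and in all 6 at week 0.

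CCL5, also called RANTES, had the largest difference of the 6. At week 3 its log2 ratios of meat over kibble were -0.84, -1.85 and -1.03 on the arrays kibble 3/meat 3 replicate 1, meat 3/kibble 3 replicate 1 and meat 3/kibble 3 replicate 2. At week 6 they were -1.48 and -1.46 on kibble 6/meat 6 replicates 1 and 2, and -0.95 and -1.26 on meat 6/kibble 6 replicates 1 and 2. Every array of both weeks was below 0, whichever dye the meat sample carried. The fitted difference was -1.30 ± 0.25 (SE; adjusted p = 0.0044, limma) at week 3 and -1.27 ± 0.24 (adjusted p = 0.0033) at week 6. Their mean was -1.29 ± 0.20 (95% confidence interval -1.69 to -0.88; adjusted p = 0.00029).

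CCL5 varied in both directions at the other weeks. At week 0 the ratios were 0.22 on kibble 0/meat 0 replicate 1 and -0.97 and -0.18 on meat 0/kibble 0 replicates 1 and 2. At week 9 they were -0.04 and -1.56 on kibble 9/meat 9 replicates 1 and 2, and 0.33 and 0.54 on meat 9/kibble 9 replicates 1 and 2. The lowest week 9 array lay within the range of weeks 3 and 6, so the arrays of the week pairs overlapped. Week 0 gave a fitted difference of -0.34 ± 0.25 (adjusted p = 0.82), and week 9 gave -0.19 ± 0.24 (adjusted p = 0.84).

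CCL4, also called MIP-1 beta, is a chemokine that attracts other immune cells. Its ratios at week 3 were -0.13, -0.68 and -0.37 on kibble 3/meat 3 replicate 1, meat 3/kibble 3 replicate 1 and meat 3/kibble 3 replicate 2. At week 6 they were -0.88 and -0.59 on kibble 6/meat 6 replicates 1 and 2, and -0.24 and -0.57 on meat 6/kibble 6 replicates 1 and 2. All 7 were below 0, and the fitted mean of weeks 3 and 6 was -0.49 ± 0.12 (SE; adjusted p = 0.0096). The difference at week 6, -0.58 ± 0.14, passed the test (adjusted p = 0.017), while that at week 3, -0.39 ± 0.16, did not (adjusted p = 0.13).

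CCL4 was above 0 on most arrays of the other weeks. At week 0 it read 0.63, -0.03 and 0.18 on kibble 0/meat 0 replicate 1 and meat 0/kibble 0 replicates 1 and 2. At week 9 it read 0.43 and -0.39 on kibble 9/meat 9 replicates 1 and 2, and 0.91 and 0.12 on meat 9/kibble 9 replicates 1 and 2. Thus 5 of 7 arrays had the higher level on meat, and 1 array of week 9 lay within the range of weeks 3 and 6. The fitted difference at week 9 was 0.30 ± 0.14, with an unadjusted p of 0.046 and an adjusted p of 0.46.

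CD8A, which marks cytotoxic T cells and in some species a share of NK cells, was lower on meat on 7 of 7 arrays of weeks 3 and 6. At week 3 its ratios were -0.58 on kibble 3/meat 3 replicate 1, and -0.44 and -0.93 on meat 3/kibble 3 replicates 1 and 2. At week 6 they were -0.10 and -0.40 on kibble 6/meat 6 replicates 1 and 2, and -0.53 and -1.29 on meat 6/kibble 6 replicates 1 and 2. The week 6 arrays spread over more than 1 log2 unit, from near 0 to the lowest CD8A value of any diet array. The fitted difference was -0.69 ± 0.19 (adjusted p = 0.030) at week 3 and -0.55 ± 0.17 (adjusted p = 0.060) at week 6. Over both weeks it was -0.62 ± 0.15 (adjusted p = 0.0067).

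At weeks 0 and 9 CD8A was below 0 on 5 of 7 arrays, though close to 0 in the fit. The arrays ran from -0.57, on kibble 9/meat 9 replicate 1, through a median of -0.16 to 0.52, on meat 9/kibble 9 replicate 2. Week 0 gave a fitted difference of 0.02 ± 0.19 (adjusted p = 0.996), and week 9 gave -0.10 ± 0.17 (adjusted p = 0.90). The 2 CD8A probes moved together over the 30 arrays, with log2 ratios never more than 0.15 apart. In a fit of all probes that passed the filter, the dimmer probe read -0.64 ± 0.15 for the mean of weeks 3 and 6 (adjusted p = 0.0063).

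PRF1, whose product forms the pore through which granzymes enter a target cell, was lower on meat on 6 of 7 arrays. At week 3 its ratios were 0.31 on kibble 3/meat 3 replicate 1, and -0.67 and -0.99 on meat 3/kibble 3 replicates 1 and 2. At week 6 they were -0.82 and -0.75 on kibble 6/meat 6 replicates 1 and 2, and -0.21 and -0.86 on meat 6/kibble 6 replicates 1 and 2. The exception at week 3 was the array that carried the meat sample in Cy5, and the other dye order was on the remaining arrays of that week. PRF1 differed by -0.61 ± 0.15 at week 6 (adjusted p = 0.014), by -0.51 ± 0.16 at week 3 (adjusted p = 0.053) and by -0.56 ± 0.12 over both (adjusted p = 0.0043). Without meat 3/kibble 3 replicate 2 the week 3 value was -0.34 (adjusted p = 0.41).

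PRF1 at week 0 lay near 0 on every array. It read 0.11 on kibble 0/meat 0 replicate 1 and -0.03 and 0.07 on meat 0/kibble 0 replicates 1 and 2. At week 9 it spread from -0.28, on kibble 9/meat 9 replicate 2, to 0.70, on meat 9/kibble 9 replicate 1. The fitted differences of 0.07 ± 0.16 and 0.20 ± 0.15 did not pass the test (adjusted p = 0.99 and 0.72).

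FASLG, the ligand with which cytotoxic cells trigger apoptosis through FAS, had the smallest difference of the 6 in the mean of weeks 3 and 6. At week 3 its ratios were 0.17 on kibble 3/meat 3 replicate 1, and -0.69 and -0.73 on meat 3/kibble 3 replicates 1 and 2. At week 6 they were -0.81 and -0.36 on kibble 6/meat 6 replicates 1 and 2, and -0.03 and -0.63 on meat 6/kibble 6 replicates 1 and 2. The same week 3 array as for PRF1 was above 0, and 6 of 7 were below. The fitted difference was -0.41 ± 0.14 (adjusted p = 0.073) at week 3, -0.43 ± 0.13 (adjusted p = 0.043) at week 6 and -0.42 ± 0.11 over both (adjusted p = 0.011). The week 6 call of FASLG was lost in 11 of the 30 fits that leave out 1 array, and its value was -0.28 without kibble 6/meat 6 replicate 1 (adjusted p = 0.35). At weeks 0 and 9 the arrays ran from -0.50 to 0.47, with fitted differences of -0.20 ± 0.14 and 0.04 ± 0.13 (adjusted p = 0.80 and 0.96).

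KLRD1, the NK receptor chain, was above 0 on the same week 3 array. Its ratios at week 3 were 0.41 on kibble 3/meat 3 replicate 1, and -0.70 and -1.08 on meat 3/kibble 3 replicates 1 and 2. At week 6 they were -1.22 and -0.64 on kibble 6/meat 6 replicates 1 and 2, and -0.21 and -0.61 on meat 6/kibble 6 replicates 1 and 2. All arrays of week 6 were below 0, and the fitted difference there was -0.68 ± 0.18 (adjusted p = 0.026). At week 3 it was -0.41 ± 0.20 (adjusted p = 0.21), and over both weeks -0.54 ± 0.15 (adjusted p = 0.020). The week 3 value was -0.21 without meat 3/kibble 3 replicate 2 and -0.62 without kibble 3/meat 3 replicate 1 (adjusted p = 0.72 and 0.095). At week 0 KLRD1 read 0.68 on kibble 0/meat 0 replicate 1, and -0.42 and -0.28 on meat 0/kibble 0 replicates 1 and 2, so that week 0 overlapped weeks 3 and 6. The fitted difference there was 0.04 ± 0.20 (adjusted p = 0.99). At week 9 all arrays were above 0, with 0.16 and 0.09 on kibble 9/meat 9 replicates 1 and 2 and 0.60 and 0.26 on meat 9/kibble 9 replicates 1 and 2, so the arrays of weeks 6 and 9 did not overlap. The fitted difference at week 9 was 0.28 ± 0.18 (adjusted p = 0.66).

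Counted by week, 2 of the 6 genes were called lower on meat at week 3 (CCL5 and CD8A), where 3.78% of all units were called lower, and 5 of 6 at week 6 (all but CD8A), where 3.44% were. With the limma fit 0 of 6 were called at week 0, where 0.312% of all units were called in either direction, and 0 of 6 had an unadjusted p below 0.05. At week 9 0 of 6 were called beside 0.582% of all units, with 1 of 6, CCL4, below 0.05 unadjusted. Over the mean of weeks 0 and 9 again 0 of 6 were called beside 0.967%, and 1 of 6 was below 0.05 unadjusted.

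Single arrays moved these counts. Without kibble 6/meat 6 replicate 1, or without kibble 6/meat 6 replicate 2, 1 of 6 genes was called at week 6, and the count over all units in either direction fell from 1617 to 138 and 950. At week 3 the count was 1 of 6 without meat 3/kibble 3 replicate 2 and 4 of 6 without meat 6/kibble 6 replicate 1, where all units called went from 1580 to 215 and 1963. The shares of all units given for single weeks therefore also rest on single arrays. For the mean of weeks 3 and 6 KLRD1 lost its call without meat 3/kibble 3 replicate 1, meat 3/kibble 3 replicate 2 or kibble 6/meat 6 replicate 1 (adjusted p = 0.060, 0.12 and 0.11). FASLG lost it without meat 3/kibble 3 replicate 2 or kibble 6/meat 6 replicate 1 (adjusted p = 0.059 and 0.072). The count over all units for this mean fell from 3137 to 1706 without meat 3/kibble 3 replicate 2 and to 1826 without kibble 6/meat 6 replicate 1. The other 4 genes kept their calls with any single array left out.

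The normalisation and the arrays in the fit also mattered. With each array centred on its median in place of loess, only CCL5 of the 6 was called for the mean of weeks 3 and 6 (-1.26, adjusted p = 0.0026), and the differences of all 6 lay between -1.26 and -0.42. With the diet arrays alone CCL5 again was the only gene called (adjusted p = 0.023), and CD8A had an adjusted p of 0.0503. Without the slide of week 3, or without the slide of week 6, 0 of 6 were called, while the fitted differences stayed below 0 at -1.26 to -0.42 and -1.21 to -0.26. The count over all units fell likewise, from 3137 to 2 and 6 called in either direction. It was 644 with median centring and 1077 with the diet arrays alone. In the fits without the slide of week 3 or week 6, the missing week has no diet array. Its difference is then that of the other week, carried over by the time arrays of both diets.

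The question that the week pairs raise is whether the diet difference at weeks 3 and 6 itself differed from that at weeks 0 and 9. The diet difference was more negative at weeks 3 and 6 by 1.02 ± 0.28 (SE) log2 units in CCL5, 0.74 ± 0.17 in CCL4, 0.70 ± 0.22 in KLRD1, 0.69 ± 0.18 in PRF1, 0.58 ± 0.21 in CD8A and 0.34 ± 0.15 in FASLG. All 6 had an unadjusted p below 0.05, from 0.00021 in CCL4 to 0.034 in FASLG, where 7.94% of all units did. None passed after adjustment in limma: 0 of 6 genes and 0 of 25954 units (0%) were called, and the adjusted p of the 6 ran from 0.42 to 0.59. The median of the 6 was -0.70, beside 0.00 over all units. A difference between the week pairs was therefore not established at the threshold used, although the diet difference passed in the first pair and not in the second. Without meat 9/meat 0 replicate 1, the array that stood apart, the 6 values ran from -1.01 to -0.34 and still 0 of 6 passed.

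Within a diet, the fitted change from week 3 to week 6 was below 0 for all 6 genes on kibble and on meat, and it passed the test in CCL4 on meat. The 4 kibble arrays (kibble 3/kibble 6) gave CD8A ratios of week 6 over week 3 of -1.04, -0.89, -0.30 and -0.95 in replicates 1 to 4. The 4 meat arrays (meat 6/meat 3) gave -0.12, -0.93, -0.39 and -0.94. All 8 were below 0, and the fitted change in CD8A was -0.77 ± 0.17 on kibble (adjusted p = 0.074) and -0.62 ± 0.17 on meat (adjusted p = 0.054).

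CCL4 fell from week 3 to week 6 on meat. Its arrays read -0.60, -0.66, -0.21 and -0.91 in meat replicates 1 to 4, and the fitted change was -0.63 ± 0.14 (adjusted p = 0.020). On kibble they read -0.77, -0.42, -0.24 and -0.47, with a fitted change of -0.44 ± 0.14 (adjusted p = 0.14). CCL4 was the only gene of the 6 called on meat, where 0.466% of all units were called lower, and its call was lost without meat 6/meat 3 replicate 2 or meat 6/meat 3 replicate 4. All units called in either direction then went from 583 to 249 and 166. The count was 2 of 6 without meat 9/meat 0 replicate 1, meat 6/meat 3 replicate 1, kibble 3/kibble 6 replicate 3, kibble 0/meat 0 replicate 1, kibble 6/meat 6 replicate 1 or meat 9/kibble 9 replicate 2. On kibble 0 of 6 were called in the limma fit, beside 0.00385% of all units, and 4 of 6 had an unadjusted p below 0.05. Without meat 6/meat 3 replicate 1 the kibble count was 1 of 6.

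CCL5 spread more widely on meat than on kibble between weeks 3 and 6. It read -0.90, -0.57, -0.55 and -1.01 on kibble but 0.06, -1.01, -0.04 and -0.94 on meat, so that 2 meat arrays were near 0 and 2 near -1. The fitted change of CCL5 was -0.63 ± 0.23 on kibble and -0.60 ± 0.23 on meat (adjusted p = 0.18 and 0.16). PRF1 was below 0 on all 8 arrays, from -0.43 to -0.34 on kibble and from -0.63 to -0.19 on meat. KLRD1 was below 0 on all 8 as well, within -0.18 to -0.11 on kibble but spread from -1.10 to -0.12 on meat. FASLG lay between -0.36 and 0.11 on the 8 arrays, with a fitted change of -0.10 ± 0.13 on kibble and -0.12 ± 0.13 on meat (adjusted p = 0.73 and 0.66).

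**Figure D2:**
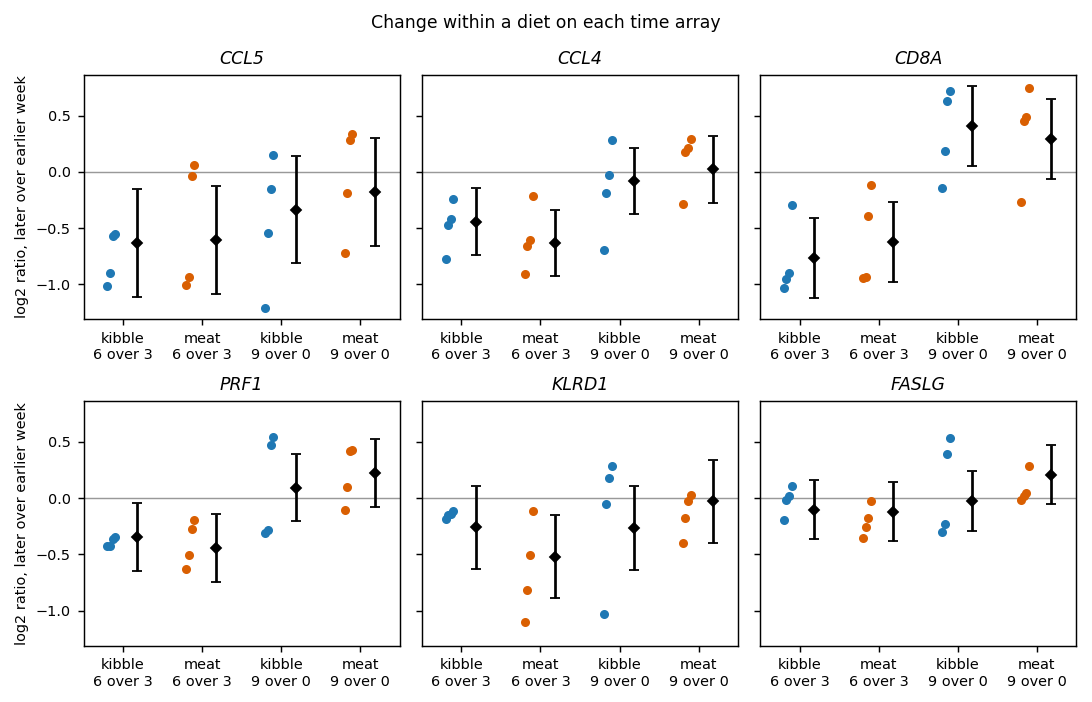
Log2 ratio of the later over the earlier week within a diet for each of the 6 genes (y axis), for weeks 6 over 3 and 9 over 0 on kibble (blue) and meat (orange). Points are single arrays, 4 per column, and black diamonds are fitted changes with 95% confidence intervals. The CD8A points of weeks 6 over 3 all lie below 0 on both diets, and the points of weeks 9 over 0 lie on both sides of 0 for most genes. Time arrays carry 1 dye order per diet, so the diamonds, which have the dye term removed, can sit away from the middle of the points.

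Averaged over both diets, a comparison added after the data were seen, the change from week 3 to week 6 was called lower in 4 of 6 genes, beside 2.74% of all units. These were CD8A (-0.70 ± 0.14, adjusted p = 0.0050), CCL4 (-0.54 ± 0.11, adjusted p = 0.0086), CCL5 (-0.62 ± 0.18, adjusted p = 0.044) and PRF1 (-0.39 ± 0.12, adjusted p = 0.041). KLRD1 was at -0.39 ± 0.14 (adjusted p = 0.099) and FASLG at -0.11 ± 0.10 (adjusted p = 0.57). The count was 2 of 6 when any single one of the 8 time arrays of weeks 3 and 6 was left out, other than meat 6/meat 3 replicate 1, and 0 of 6 with median centring. All units called in either direction numbered 1563, from 305 to 1676 without 1 of those 7 arrays and 844 with median centring. The change did not differ between the diets at the threshold: 0 of 6 genes and 0% of all units were called in limma, and 0 of 6 had an unadjusted p below 0.05. The difference between the diets in this change, meat minus kibble, ran from -0.26 (95% confidence interval -0.72 to 0.20) in KLRD1 to 0.14 (-0.30 to 0.58) in CD8A.

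Between week 0 and week 9 no gene of the 6 was called on either diet. On kibble 0 of 6 were called in limma beside 13.6% of all units, and 1 of 6, CD8A, had an unadjusted p below 0.05. CD8A read -0.14, 0.19, 0.63 and 0.72 on the arrays kibble 0/kibble 9 replicates 1 to 4, a fitted change of 0.41 ± 0.17 (adjusted p = 0.12). On meat 0 of 6 were called beside 8.04% of all units, and 0 of 6 were below 0.05 unadjusted. CD8A read -0.26, 0.49, 0.74 and 0.46 on meat 9/meat 0 replicates 1 to 4, a fitted change of 0.29 ± 0.17 (adjusted p = 0.36). The lowest CD8A value on each diet came from replicate 1. On meat that is the array that stood apart in probes above background, and without it the count was 0 of 6 too. On kibble it is the array with the fewest probes above background, 20089 in Cy3 and 19423 in Cy5. That kibble array also held the lowest value of its 4 in CCL5 (-1.21, others -0.54 to 0.15), CCL4 (-0.69, others -0.19 to 0.28), KLRD1 (-1.03, others -0.05 to 0.29) and PRF1 (-0.31, others -0.28 to 0.55). The meat array held the lowest value of its 4 in the same genes, for example -0.72 in CCL5 (others -0.19 to 0.34), and the highest in FASLG (0.28, others -0.02 to 0.05). The change from week 0 to week 9 did not differ between the diets past the threshold, with 0 of 6 genes and 0% of all units called in limma and 0 of 6 below 0.05 unadjusted.

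The level of each gene in the 8 groups was read from the single channels after normalisation between arrays, on a log2 intensity scale. Levels of different genes are not compared, because each has its own probe. All 6 genes had their lowest mean at week 6 on meat. For CCL5 this was 13.26 ± 0.90 (SD, n = 8 channels), below meat at week 3 (13.79 ± 0.63, n = 7), kibble at week 6 (14.20 ± 0.68, n = 8) and meat at week 9 (14.42 ± 0.72, n = 8). Above these stood meat at week 0 (14.60 ± 0.88, n = 7), kibble at week 9 (14.61 ± 0.62, n = 8), kibble at week 3 (14.83 ± 0.60, n = 7) and kibble at week 0 (15.05 ± 0.84, n = 7). On both diets week 6 was the lowest of the 4 weeks in CCL5.

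The other genes had a narrower span. CCL4 ran from 11.36 ± 0.70 (SD) on meat at week 6 and 11.79 ± 0.40 on kibble at week 6 up to 12.46 ± 0.54 on meat at week 9, with the other groups between 12.05 and 12.32. CD8A ran from 10.01 ± 0.49 on meat at week 6 to 11.18 ± 0.22 on kibble at week 3, followed by kibble at week 9 (10.98 ± 0.44) and meat at week 9 (10.91 ± 0.45). PRF1 ran from 8.61 ± 0.54 on meat at week 6 to 9.49 ± 0.68 on meat at week 9. KLRD1 stood at 10.99 ± 0.54 on meat at week 6, and the other 7 groups lay between 11.49 and 11.72. FASLG ran from 7.57 ± 0.41 on meat at week 6 to 8.08 ± 0.37 on kibble at week 9. In the order of each gene, all 42 pairs of neighbouring groups lay closer than the larger of their SDs over channels. These SDs hold the spread between arrays, which a ratio within an array does not. Groups that are neighbours in this order can thus differ in the fit of ratios, as CCL4 did between meat and kibble at week 6 (-0.58 ± 0.14, adjusted p = 0.017).

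**Figure D3:**
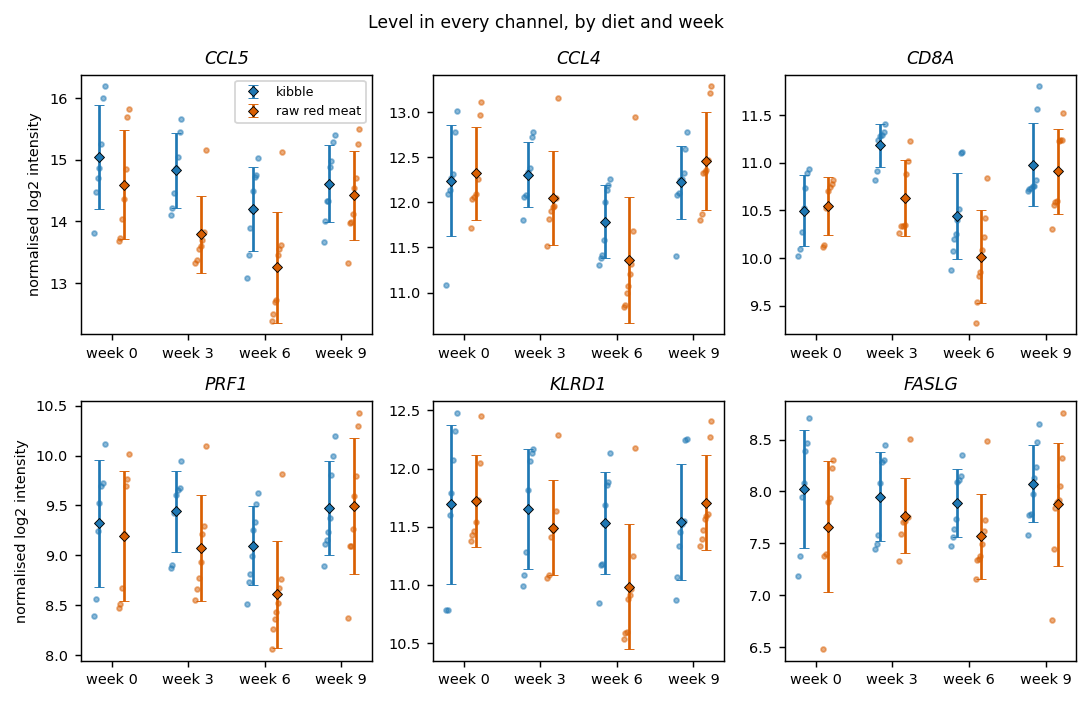
Normalised log2 intensity of each gene (y axis) in every channel of the 8 groups, kibble in blue and raw red meat in orange, by week (x axis). Small points are single channels (7 or 8 per group) and diamonds with bars are means ± SD. The lowest diamond of every panel is meat at week 6. In the meat groups of weeks 3 and 6 a single channel lies far above the rest in all genes but CD8A, at 15.15 and 15.12 in CCL5.

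At weeks 3 and 6 on meat a single array held the highest of these levels, far above the rest in all genes but CD8A. Both channels of meat 6/meat 3 replicate 3 held the highest meat value of their week in 12 of 12 combinations of gene and week. CCL5 read 15.15 in its week 3 channel and 15.12 in its week 6 channel, against at most 13.83 and 13.61 in the other channels of these groups. CCL4 read 13.16 and 12.95, against at most 12.05 and 11.68, and PRF1 read 10.09 and 9.82, against at most 9.30 and 8.77. CD8A lay closer to the others, at 11.23 and 10.84 against at most 11.02 and 10.42. Without that array the mean CCL5 level on meat was 13.56 ± 0.19 (SD, n = 6) at week 3 and 12.99 ± 0.53 (n = 7) at week 6. The array does not enter the diet ratios of weeks 3 and 6 directly, and without it all 6 differences of meat and kibble stayed called, from -1.28 in CCL5 to -0.42 in FASLG. The array of the same number at weeks 9 and 0, meat 9/meat 0 replicate 3, was also high among the meat 9/meat 0 arrays. CCL5 read 15.50 and 15.69 on it, against at most 14.70 and 14.84 on the others. On the diet arrays CCL5 on meat reached 15.25 at week 9 (kibble 9/meat 9 replicate 1) and 15.82 at week 0 (meat 0/kibble 0 replicate 2). In CD8A the week 0 channel of meat 9/meat 0 replicate 3 (10.78) lay below that of replicate 1 (10.82). Whether meat 6/meat 3 replicate 3 and meat 9/meat 0 replicate 3 hold the same dog was not tested.

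The single channels also allow weeks 3 and 6 to be set against weeks 0 and 9 within each diet, although the week pairs lie on different slides and the effect of slide cannot be told apart from theirs. On meat 4 of 6 genes were called in a separate-channel limma fit, all lower, where 16.1% of all units were called in either direction. These were CCL5 (-1.11 ± 0.27, adjusted p = 0.0037), CCL4 (-0.77 ± 0.18, adjusted p = 0.0026), PRF1 (-0.62 ± 0.19, adjusted p = 0.021) and KLRD1 (-0.56 ± 0.19, adjusted p = 0.038). CD8A was at -0.44 ± 0.17 (adjusted p = 0.068) and FASLG at -0.23 ± 0.17 (adjusted p = 0.34). On kibble 0 of 6 were called beside 7.79% of all units, 0 of 6 had an unadjusted p below 0.05, and the values ran from -0.19 ± 0.27 in CCL5 to 0.11 ± 0.17 in CD8A. On meat the count was 5 of 6 without meat 6/meat 3 replicate 3, with CD8A at -0.51 (adjusted p = 0.035). It was 0 of 6 without normalisation between arrays, where CCL5 was at -1.05 and CCL4 at -0.72 (adjusted p = 0.27 and 0.25) and 248 units were called in place of 4110. The KLRD1 call on meat was lost in 12 of the 30 fits that leave out 1 array.

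The 6 genes also varied together over the arrays. Likeness was measured as the uncentred correlation of dye-adjusted log2 ratios over the 30 arrays, which share dogs, slides and processing, and is given as a description. Among the 15 pairs of the 6 genes it ran from 0.43 (CD8A with FASLG) to 0.86 (CCL4 with KLRD1), with a median of 0.75. CD8A had its closest match within the 6 in PRF1 (0.72), and was less like KLRD1 (0.55). The gene LOC480600 was the closest of 1090 named units to CCL5 (0.87), CD8A (0.78), PRF1 (0.88) and KLRD1 (0.90), and the second closest to CCL4 (0.86). It lies next to CCL3 and CCL4 in the RefSeq annotation (assembly UU_Cfam_GSD_1.0), in a cluster of chemokine genes, and its difference at weeks 3 and 6 was -0.53 (adjusted p = 0.0023). Whether its probe shares sequence with a chemokine neighbour was not tested. The other genes outside the 6 among the 3 closest to a member were GPR83 for CCL5 (0.78), BACE1 and CLDN3 for CD8A (both 0.77), MT1E for PRF1 (0.84) and CD80 for FASLG (0.79). FASLG itself was closest to PRF1 (0.81).

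Other genes of the cytotoxic programme were counted from a list of 38, of which 11 matched a measured unit by gene symbol. The rest may be absent from the array or among the units without a symbol. Averaged over weeks 3 and 6 all 11 differences were below 0, with a median of -0.23. In this mean 4 of 11 were called lower and 0 higher, beside 6.84% and 5.24% of all units. By week 11 of 11 were below 0 and 2 called lower at week 3, beside 3.78% of all units. At week 6, 9 of 11 were below 0 and 1 was called lower, beside 3.44% of all units. At week 0, 8 of 11 were below 0 and at week 9, 6 of 11. There 0 of 11 were called, beside 0.312% and 0.582% of all units in either direction. The medians of the 11 were -0.10, -0.25, -0.14 and -0.06 in week order. Of all units 49.8% to 51.6% were below 0 in single weeks and 48.7% in the mean of weeks 3 and 6. In that mean CX3CR1, the fractalkine receptor of effector lymphocytes and some monocytes, was at -0.68 ± 0.13 (adjusted p = 0.0017). RAB27A, a small GTPase needed for granule release, was at -0.64 ± 0.13 (adjusted p = 0.0022). IL12RB2, a chain of the interleukin 12 receptor, was at -0.45 ± 0.15 (adjusted p = 0.048), and CTSC, the protease that activates granzymes, at -0.23 ± 0.07 (adjusted p = 0.029). The other 7 lay between -0.24 and -0.02, and IFNG and CCL3 were among those nearest 0 (both -0.02). Between the week pairs 0 of 11 were called in limma, with 3 of 11 (CX3CR1, IL2RB and IFNG) below 0.05 unadjusted, where 7.94% of all units were.

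**Figure D4:**
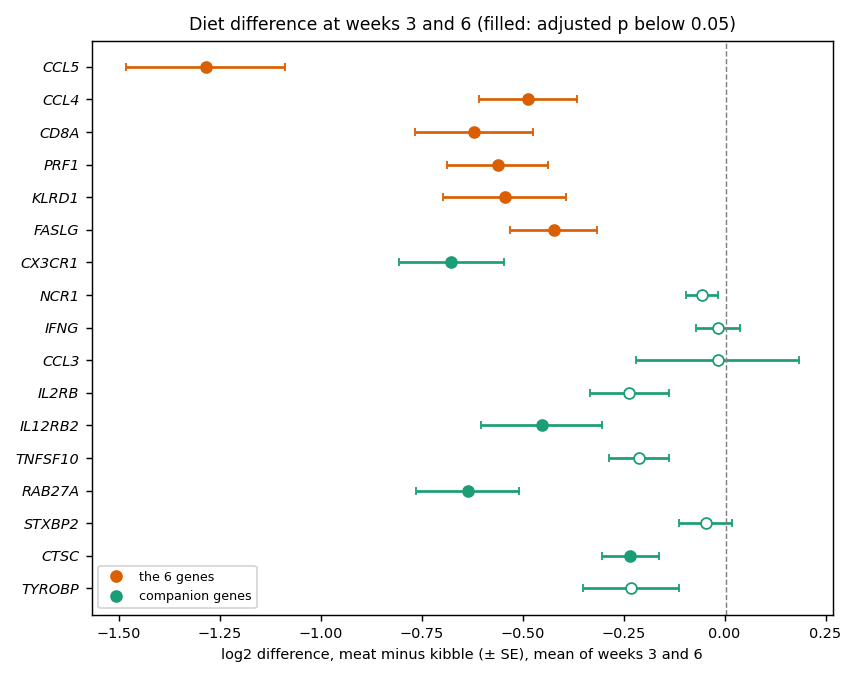
Log2 difference of meat minus kibble averaged over weeks 3 and 6 (x axis, with SE bars) for the 6 genes (orange) and 11 further cytotoxic genes (green). Filled circles passed the limma test at an adjusted p below 0.05, and the dashed line is the median of all units, 0.00. Every gene shown lies below 0, with CCL5 the lowest and IFNG the highest.

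Genes that act with FASLG and CD8A were read in the same comparison, the mean of weeks 3 and 6. There 6.84% of all units were called lower and 5.24% higher. Of the death receptor pathway below FASLG 0 of 3 measured genes were called in limma, and CYCS, cytochrome c, which is released in apoptosis, was at 0.15 ± 0.07 (adjusted p = 0.18; the 1 of 3 below 0.05 unadjusted), with BAX at -0.15 ± 0.14 (adjusted p = 0.58). Of a list of MHC class I, to which CD8 binds, and the genes that load peptides onto it, 1 of 5 genes was lower. This was TAPBP, which helps load peptides and is not itself bound by CD8, at -0.24 ± 0.05 (adjusted p = 0.0029). TAP2, a peptide transporter, was at 0.10 ± 0.07 (adjusted p = 0.41).

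Markers of other cells in the preparation moved in the same comparison, and their part in the results above was not tested. No gene of the list of markers common to all T cells matched a measured unit by gene symbol, so none could be read. Of helper and naive T cell markers 3 of 5 were higher on meat, where 5.24% of all units were called higher, and 0 lower: CD40LG by 0.43 ± 0.12 (adjusted p = 0.021), CD28 by 0.22 ± 0.07 (adjusted p = 0.036) and ICOS by 0.17 ± 0.05 (adjusted p = 0.043). CD4 was at 0.05 ± 0.23 (adjusted p = 0.93). Of B cell markers 0 of 2 were called in limma, beside 6.84% of all units lower and 5.24% higher. Unadjusted, 0 of 2 were below 0.05 (MS4A1 at -0.12 ± 0.25, CD40 at -0.11 ± 0.13).

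Monocyte markers were lower in 4 of 5 and platelet markers in 6 of 6, with medians of -0.52 and -0.98. For these and the neutrophil, basophil and eosinophil counts below, 6.84% of all units were called lower. The clearest were CYBB (-0.75 ± 0.13, adjusted p = 0.00058) and TLR4 (-0.50 ± 0.13, adjusted p = 0.011) for monocytes. For platelets they were CLU (-0.86 ± 0.13, adjusted p = 0.00023) and GP1BA (-1.53 ± 0.23, adjusted p = 0.00026). Neutrophil markers were lower in 2 of 6, CAMP at -2.77 ± 0.37 (adjusted p = 8.1e-05) and LTF at -0.87 ± 0.21 (adjusted p = 0.0076). Basophil and eosinophil markers were lower in 1 of 3, MS4A2 at -1.08 ± 0.14 (adjusted p = 6.2e-05), with CCR3 at -0.31 ± 0.19 (adjusted p = 0.32). At week 0 and at week 9 as well, 1 of 3 of these and 1 of 6 neutrophil markers were called lower. Of the platelet markers 0 of 6 were called at week 0 and 1 of 6 at week 9, and of the monocyte markers 0 of 5 at both. Of all units 0.312% and 0.582% were called in either direction at weeks 0 and 9.

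Over the 7 diet arrays of weeks 3 and 6 the mean ratio of the platelet markers ran from -2.00 to -0.53, that of the monocyte markers from -1.31 to 0.12 and that of the neutrophil markers from -2.23 to 0.49. Over the 7 arrays of weeks 0 and 9 they ran from -1.85 to 0.05, -1.24 to 0.32 and -1.50 to 0.67. The platelet markers were below 0 in the fit at every week, with medians of -0.61, -0.83, -1.32 and -0.60 in week order. The median of the 6 cytotoxic genes was 0.03, -0.46, -0.60 and 0.12 in the same order. The platelet markers and the 6 genes were therefore lowest at week 6. At weeks 0 and 9 the platelet markers lay below 0 while the median of the 6 genes was just above it. The monocyte medians were -0.36, -0.81, -0.36 and -0.34 and the neutrophil medians -0.36, -0.71, -0.39 and -0.50 in week order, both lowest at week 3.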

How the data were processed

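Gene expression was measured on 2-colour arrays. Per the file headers the authors scanned them with Agilent Feature Extraction 10.10.1.1, and the deposited files hold spot and local background intensity, of which the medians were used. The authors also deposited log2 ratios, which correlated at 0.834 to 0.992 per array with those computed here. The submitters' processing notes name limma without its role.

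Intensities were corrected by normexp (offset 50) and normalised by loess within arrays. Control spots and 979 outlier spots were left out. A probe was kept if 7 or more of 60 channels were well above background. Log2 ratios were fitted in limma 3.58.1 (R 4.3.3) with group terms and a dye term (23 residual degrees of freedom). Tests were two-sided, with Benjamini-Hochberg adjustment over 25954 units and a threshold of 0.05. Channels were compared with lmscFit after normalisation of A values by quantiles, on 25540 units with no missing value. Array number limits the precision. Fits were tested on simulated data.

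All 6 genes were named by rule, as were called companions, up to 2 genes with the smallest p per other list, and 3 like genes per member. The results of 1 list are not reported here. Members and lists were chosen with earlier results of these data known. Alternatives were other background corrections, normalisations, filters, dye terms, blocks, weights, probe summaries, and arrays or slides left out. Arrays were treated as independent, and whether a replicate number follows a dog was not settled.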

Additional observations from a re-analysis of the deposited data

Results flagged for a closer look

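The following readings stood out, and their causes were not tested. In CCL5 at week 6 the array meat 6/kibble 6 replicate 1 had a dye-adjusted log2 ratio of meat over kibble of -1.05, apart from the other 3 arrays at -1.37 to -1.35. In PRF1 the same array read -0.21, apart from the others at -0.86 to -0.75. Each was judged by the gap to its nearest neighbour over the range of the 4 arrays, in 36 groups of 4 arrays, and chance marks about 1 in 20 groups, so about as many would be marked by chance. Without this array 6 of 6 genes were called for the mean of weeks 3 and 6.

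In KLRD1 the diet difference pointed one way at week 6 and the other at week 9: all 4 arrays of week 6 were below 0 and all 4 of week 9 above, 0.95 apart in their means. With the dye term removed, 1 week 9 array read -0.02. The difference between these weeks was not tested on its own. The difference between the week pairs that hold them was -0.70 ± 0.22 (adjusted p = 0.52, limma).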

How the results depend on the processing

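Counts are genes of the 6 called, with the cause of a change not tested unless fewer arrays were fitted. For the mean of weeks 3 and 6 (6) the count was 1 with median centring or with the diet arrays only, 0 without slide 6 or 7 (the week 3 and week 6 diet arrays), and 4 to 6 with each array left out. For week 3 (2) it was 1 with processed signals, median centring, or without slide 3 or 7, 0 with a dye term per slide, the diet arrays only or without slide 6, and 1 to 4 with each array left out. For week 6 (5) it was 1 with median centring, 0 with the diet arrays only or without slide 7, 2 without slide 6, 3 without slide 3, 4 or 8, and 1 to 6 with each array left out. For week 6 minus week 3 on meat (1) it was 0 with median centring, a dye term per slide, or without slide 3, 4, 6 or 7, 2 with scaled arrays, a filter of 30 channels or without the first 2 arrays of slide 1, 4 with array weights, 3 with separate channels, and 0 to 2 with each array left out. On kibble (0) it was 1 with scaled arrays or separate channels, 2 with array weights, and 0 to 1 with each array left out. Over both diets (4) it was 0 with median centring or without slide 3 or 4, 2 with no filter, no dye term or without slide 7, and 2 to 4 with each array left out. For week 9 minus week 0 on kibble (0) it was 2 with median centring and 1 without slide 1, without its first 2 arrays or with separate channels. The separate-channel count on meat (4) was 0 without normalisation between arrays and 3 to 5 with each array left out. On kibble uncalled separate-channel values changed sign around 0. PRF1 (-0.016) ran from -0.086 to 0.064, KLRD1 (0.066) from -0.024 to 0.14 and FASLG (0.00026) from -0.071 to 0.057 with each array left out. PRF1 was 0.059 without normalisation between arrays, and FASLG -0.015 with quantile normalisation. The difference between the week pairs kept a count of 0 in every alternative run. With the replicate number as a replicate block the mean of weeks 3 and 6 kept a count of 6, from -1.27 to -0.43. Whether a replicate number follows a dog within a diet was not settled. Of 24 same-numbered pairs of time arrays 8 correlated above 0.1 (-0.80 to 0.42), but pairs of a kibble and a meat array hold different dogs. Between kibble 0/kibble 9 and kibble 3/kibble 6 the correlation was 0.41, 0.38, -0.36 and 0.42 in replicates 1 to 4. Between meat 9/meat 0 and meat 6/meat 3 it was -0.71, -0.21, -0.07 and 0.33.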
